A study of Homo sapiens with 6 samples.

Results

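The genes examined here encode 7 subunits of the Polycomb complexes: EZH2, EZH1, EED and SUZ12 of Polycomb repressive complex 2, and BMI1, CBX2 and KDM2B of Polycomb repressive complex 1 and its variants. They were chosen by name as known members of these complexes and not by their values, though earlier results of these data were known by then. All ATAC-seq peaks within 5 kb of each gene in hg19 were collected, which gave 58 merged regions of 248031 in the whole series. Between 31 and 47 peaks per library lay there. In ATAC-seq a transposase inserts adapters where DNA is not covered by nucleosomes, so a peak marks accessible chromatin. The cells were U2OS, an established human osteosarcoma line, in 2 genotypes with 3 libraries each: CRAMP1-KO, in which CRAMP1 was knocked out, and WT. No other allele or treatment is named in the labels for either genotype. CRAMP1 is a protein that controls the expression of H1 linker histones, and the design asks how accessibility differs without it. The labels give neither the number of clones nor whether replicates were separate cultures, so p-values here speak of the spread among libraries alone, and that spread may be technical.

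Polycomb proteins keep developmental genes silent. Complex 2 methylates histone H3 at lysine 27 through its catalytic subunit EZH2 or EZH1, with EED binding the finished mark and SUZ12 holding the complex together. Complex 1 places ubiquitin on histone H2A through a RING ligase, whose partner BMI1 stimulates it, while CBX2 reads the methyl mark and KDM2B, a CpG-binding protein with a demethylase domain, brings a variant complex to unmethylated CpG-rich DNA. In proliferating cells EZH2 is generally the more abundant catalytic subunit and EZH1 the one kept in resting cells.

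The promoters below are shown because the start regions of EZH2 and SUZ12, and the strongest region inside KDM2B, had lower pileup in CRAMP1-KO libraries, while those of EED and EZH1 did not pass the test. The set is not complete: the KDM2B start region was called lower too and that of BMI1 was not called, but their first promoters are not printed. Their composition is given after the sequences, and the printed set is not a contrast of called and uncalled promoters. Sequences are from RefSeq on GRCh38.p14, each running 5′ to 3′ on the gene's strand from 250 bases before to 50 bases after a start. The peaks are on hg19, and no coordinate was converted between the builds. Capitals mark matches on either strand to the motifs searched, which were TTTGGCGC and TTTCCCGC (forms of the E2F site), CCAAT (NF-Y), CACGTG (E-box), TGACGTCA (CRE), ATGGCGG (YY1), CGCATGCG (NRF1) and CCGGAAG (ETS). No match overlapped another.
EZH2, chr7:148884242-148884541, minus strand: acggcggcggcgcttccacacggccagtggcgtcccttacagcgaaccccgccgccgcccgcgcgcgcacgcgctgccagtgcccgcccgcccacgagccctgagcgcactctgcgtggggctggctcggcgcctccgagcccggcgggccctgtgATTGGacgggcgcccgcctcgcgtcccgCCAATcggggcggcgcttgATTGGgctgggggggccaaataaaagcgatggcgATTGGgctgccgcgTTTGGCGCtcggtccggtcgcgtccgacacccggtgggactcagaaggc
SUZ12, chr17:31936757-31937056, plus strand: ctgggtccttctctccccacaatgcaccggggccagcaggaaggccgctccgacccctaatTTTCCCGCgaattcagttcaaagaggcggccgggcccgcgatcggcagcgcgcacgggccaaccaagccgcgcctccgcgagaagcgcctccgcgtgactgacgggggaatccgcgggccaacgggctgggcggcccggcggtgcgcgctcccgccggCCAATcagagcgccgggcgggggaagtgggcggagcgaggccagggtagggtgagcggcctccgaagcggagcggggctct
KDM2B, start inside the gene, chr12:121467329-121467628, minus strand: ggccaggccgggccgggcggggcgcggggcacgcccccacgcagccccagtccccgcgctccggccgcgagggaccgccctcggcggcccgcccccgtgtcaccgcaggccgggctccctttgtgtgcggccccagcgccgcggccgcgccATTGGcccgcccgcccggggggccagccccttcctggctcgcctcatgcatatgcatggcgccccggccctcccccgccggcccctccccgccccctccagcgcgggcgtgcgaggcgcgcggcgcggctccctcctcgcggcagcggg
EED, chr11:86244503-86244802, plus strand: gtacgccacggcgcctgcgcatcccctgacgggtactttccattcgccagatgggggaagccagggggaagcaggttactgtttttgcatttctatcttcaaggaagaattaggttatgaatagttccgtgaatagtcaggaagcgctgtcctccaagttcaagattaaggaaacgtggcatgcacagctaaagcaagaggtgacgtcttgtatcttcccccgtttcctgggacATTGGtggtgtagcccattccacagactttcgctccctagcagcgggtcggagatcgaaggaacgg
EZH1, chr17:42744991-42745290, minus strand: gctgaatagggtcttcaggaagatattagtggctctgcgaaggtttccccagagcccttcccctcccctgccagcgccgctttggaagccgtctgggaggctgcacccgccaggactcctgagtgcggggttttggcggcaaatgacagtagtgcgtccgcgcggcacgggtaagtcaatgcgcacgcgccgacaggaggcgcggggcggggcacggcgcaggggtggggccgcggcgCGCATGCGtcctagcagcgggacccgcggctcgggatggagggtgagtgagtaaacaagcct

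The EZH2 promoter was 74.7% GC with 46 CpG, and the SUZ12 promoter 73% GC with 40 CpG. The internal KDM2B promoter, 113.64 kb downstream of the first KDM2B start in the table, was 84% GC with 46 CpG. EZH1 had 67% GC and 30 CpG, while EED had 52.3% GC and 16 CpG. The medians over all 35116 promoters of the table were 58.7% GC and 14 CpG. Counted from the start, the EZH2 promoter held TTTGGCGC at 1 and CCAAT at -94, -66, -47 and -13. SUZ12 held TTTCCCGC at -189 and CCAAT at -31. EED held CCAAT at -16, the internal KDM2B promoter CCAAT at -99, and EZH1 CGCATGCG at -12. Of all promoters, 0.652% held TTTGGCGC, 1.63% TTTCCCGC, 34.6% CCAAT and 2.02% CGCATGCG. The first BMI1 promoter, at 73.3% GC with 36 CpG, held CACGTG at -70, a motif in 7.26% of all promoters. The first KDM2B promoter, at 53% GC with 15 CpG, held CCAAT at -201 and CCGGAAG at -49. CCGGAAG was in 10.3% of all promoters. TGACGTCA, in 1.85% of all promoters, and ATGGCGG, in 5.55%, had no match in the 11 promoters of these genes. A match is a string of letters in this window, not evidence of binding. The table matched 6 of the 7 genes.

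The 6 lists held 133756, 139242 and 157997 peaks in CRAMP1-KO replicates 1, 2 and 3, and 198875, 151646 and 132686 in WT replicates 1, 2 and 3. For each summit the pileup (overlapping fragments at that base) was solved from the deposited fold and p, since the lists hold no counts. Over the 92505 regions with a peak in all 6 libraries, called shared here, the median pileup was 61, 62 and 96 in CRAMP1-KO and 97, 87 and 53 in WT. Pileups were therefore divided by these medians and are called scaled pileup, where 1 is the library's own median shared region. Depth is not listed, so a relative index was inferred from each list. It is the lowest solved background divided by the width of the narrowest peak, per kb, and was not checked against read totals. The index was 19.6, 19.1 and 24.3 in CRAMP1-KO and 38.0, 23.7 and 17.4 in WT. WT replicate 1 stood apart with the most peaks and a median fold of 4.25, against 5.96 to 6.26 in the other libraries. At the start of CRAMP1 itself scaled pileup was 4.62, 4.74 and 4.27 in CRAMP1-KO and 4.24, 5.45 and 5.72 in WT (log2 change -0.17, limma adjusted p = 0.271). The genotypes overlapped there, and accessibility does not check the edit.

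Every one of the 7 genes had a shared region at or near its annotated start, so none of these starts had a peak in 1 genotype alone. Of the 58 regions, 29 (50%) were shared, against 37.3% of all merged regions, and 15 were listed in a single library. KDM2B, the longest gene, held 40 regions of which 17 were shared, while SUZ12 had 1 region over its whole length. The other windows held 3 or 4 regions each, with 1 shared at EZH2, 2 at EZH1, 2 at EED, 3 at BMI1 and 3 at CBX2. No region had a peak in 3 of 3 CRAMP1-KO libraries and 0 of 3 WT libraries, a pattern in 0.767% of all merged regions. None had the opposite pattern either, which 1.14% of all regions had. The single-library regions were spread over WT replicate 1 (5), WT replicate 2 (4), CRAMP1-KO replicate 3 (3), CRAMP1-KO replicate 1 (2) and WT replicate 3 (1). The highest pileup of a region missing from at least 1 library was 72, at the EZH1 region 23.8 kb from the start, which was listed in every library but WT replicate 3. The part of depth in whether a peak was listed was not tested. Over the genome, CRAMP1-KO-only regions numbered 1902, and 4523 without WT replicate 1. WT-only regions numbered 2823, and 8696 without WT replicate 3, when 3 of them lay at the Polycomb genes. Leaving out a library relaxes the genotype-only pattern, so these counts could only stay or rise. They therefore cannot tell how far the shares rest on single libraries.

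**Figure D1:**
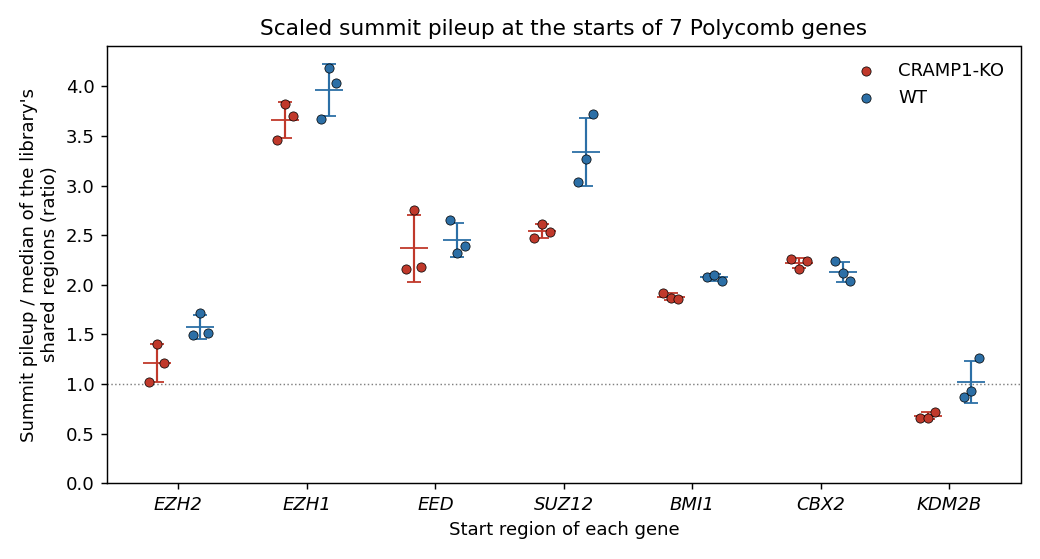
Scaled summit pileup (pileup divided by the median of the library's shared regions, a ratio) at the start regions of the 7 genes. Points are libraries and bars the mean with SD of 3 libraries, CRAMP1-KO left of WT; the genotypes do not overlap at EZH2, SUZ12, BMI1 and KDM2B, and overlap at EZH1, EED and CBX2.

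Scaled pileup was lower in CRAMP1-KO at the start regions of EZH2, SUZ12 and KDM2B, and no start region was called higher. Counting all shared regions of the 7 windows, 8 of 29 (27.6%) were called lower by limma at an adjusted p under 0.05, and 0 were called higher. Over all 92505 shared regions, 15.5% were called lower and 9.36% higher. At an unadjusted p under 0.05, 12 member regions were lower and 0 higher, as were 23.2% and 13.9% of all shared regions. Among the members limma without its mean-variance trend called 4 lower and 0 higher, against 9045 and 6788 of all 92505 shared regions. Without CRAMP1-KO replicate 1 the count was 5 lower and 0 higher, and without CRAMP1-KO replicate 2 it was 9 lower and 1 higher. Over all regions shared by the libraries kept, these were 10692 and 6654 of 96662, and 14128 and 6761 of 95771. In 14 of the 29 regions all CRAMP1-KO libraries were below all WT libraries, as in 23.7% of all shared regions. The reverse held in 0 of the 29 and in 14.4% of all shared regions. The median log2 change was -0.17 over the 29 regions and -0.07 over all shared regions. With median scaling, wide regions as a class had lower pileup in CRAMP1-KO. Among the widest 20% of shared regions, 23.3% were called lower, 3.23% were called higher, and the median log2 change was -0.16. Of the 7 start regions, 6 belonged to that widest 20%, all but that of KDM2B, as did 13 of the 29 shared regions. Within that class 5 of 13 member regions were called lower. Outside it 3 of 16 were, where 13.6% of all other shared regions were called lower and 10.9% higher.

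The calls rest on the scaling. With libraries scaled by the relative depth index, or not scaled at all, 0 of the 29 regions were called. With the depth index 458 of all 92505 shared regions were called lower and 2846 higher. Without scaling 0 of them were called, so that setting tells nothing particular to these genes. Depth-index scaling moved the median log2 change of all shared regions to 0.09 and left 86.1% of all calls higher, against 37.6% with median scaling. With the pileup divided by the local background of the same summit, 1 region, that of EED at 30.0 kb, was still called lower. Over all 92505 shared regions that setting called 2082 lower and 3329 higher. All 8 regions called lower kept a negative change under these scalings, but over local background it shrank to -0.07 at the KDM2B region at 94.0 kb (limma adjusted p = 0.703), -0.13 at 67.2 kb (limma adjusted p = 0.552) and -0.21 at 113.9 kb (limma adjusted p = 0.260).

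EZH2 encodes the main catalytic subunit of complex 2. Its start region on chromosome 7 spans 148580445 to 148582381 in hg19 and covers the annotated start. Scaled pileup there was 1.02, 1.40 and 1.21 in CRAMP1-KO replicates 1, 2 and 3, against 1.49, 1.71 and 1.51 in WT replicates 1, 2 and 3. Every CRAMP1-KO library lay below every WT library, with CRAMP1-KO replicate 1 the lowest. The log2 change was -0.39 (SE 0.12, limma adjusted p = 0.0103). Before scaling the pileups were 62, 87 and 116 in CRAMP1-KO and 145, 149 and 80 in WT, and these overlap. The deposited fold over local background was 12.2 ± 2.11 in CRAMP1-KO and 14.6 ± 1.48 in WT (SD, n = 3 each) and also overlapped. Width was 1892, 1755 and 1862 bp in CRAMP1-KO and 1804, 1708 and 1650 bp in WT, a log2 change of -0.04 once each library was centred on its own median width (limma adjusted p = 0.854). Without CRAMP1-KO replicate 1 the pileup change was -0.26 (limma adjusted p = 0.123) and without WT replicate 2 it was -0.33 (limma adjusted p = 0.0820), so the call was lost without either. Calls lower over all shared regions also fell, from 14370 of 92505 to 10692 of 96662 and 9439 of 94055. A lost call may therefore come from having fewer libraries in the test. The other 2 regions of the EZH2 window, 27.8 and 80.8 kb from the start, were listed in 1 and 2 libraries.

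EZH1 encodes the alternative catalytic subunit, and its start region had the highest scaled pileup of the 7, above 92.6% of all shared regions. The region on chromosome 17 spans 40896102 to 40897386. Scaled pileup was 3.46, 3.82 and 3.70 in CRAMP1-KO, against 3.67, 4.18 and 4.04 in WT. The genotypes overlapped, and the log2 change of -0.11 (SE 0.10) did not pass the test (limma adjusted p = 0.423). Fold was 15.2 ± 0.799 in CRAMP1-KO and 15.8 ± 0.557 in WT (SD, n = 3 each). The second shared region, 46.1 kb in and beyond the end of the gene, had a scaled pileup of 1.15, 1.13 and 1.02 in CRAMP1-KO and 1.04, 1.53 and 1.43 in WT, and did not pass the test either (log2 change -0.26, limma adjusted p = 0.116). The neighbouring gene at EZH1 in the RefSeq gene table is CNTNAP1.

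EED binds methylated lysine 27 and stimulates the enzyme. Its start region, on chromosome 11 from 85955292 to 85956939, had a scaled pileup of 2.16, 2.76 and 2.18 in CRAMP1-KO and 2.65, 2.32 and 2.40 in WT. The highest and the lowest library were both CRAMP1-KO, so the log2 change of -0.06 (SE 0.10, limma adjusted p = 0.698) lay within the spread. A narrow region 30.0 kb into EED, from 85985557 to 85985999, did differ. Its scaled pileup was 0.607, 0.645 and 0.656 in CRAMP1-KO, against 0.938, 0.828 and 0.868 in WT. The genotypes did not overlap, and the log2 change was -0.46 (SE 0.15, limma adjusted p = 0.0184). Fold there was 10.6 ± 1.80 in CRAMP1-KO and 14.4 ± 1.03 in WT (SD, n = 3 each), while width, at 329, 369 and 344 bp in CRAMP1-KO and 318, 198 and 321 bp in WT, did not pass its test (limma adjusted p = 0.729). This call was lost without CRAMP1-KO replicate 1 (log2 change -0.42, limma adjusted p = 0.0599) and without WT replicate 1 (-0.41, limma adjusted p = 0.0768).

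SUZ12, the scaffold of complex 2, gave the lowest adjusted p of the 7 start regions. The region, on chromosome 17 from 30263323 to 30264746, was the only one of its window. Scaled pileup was 2.48, 2.61 and 2.53 in CRAMP1-KO, against 3.04, 3.26 and 3.72 in WT. The CRAMP1-KO libraries lay close together and all below WT, with a log2 change of -0.39 (SE 0.10, limma adjusted p = 0.00224). Fold was 13.9, 14.6 and 14.6 in CRAMP1-KO and 18.3, 17.5 and 18.7 in WT, also without overlap. Fold is taken from the same summit pileup, so it is not a separate measurement. The share of all shared regions whose folds lay apart was not computed. Width was 1323, 1305 and 1424 bp in CRAMP1-KO and 1324, 1327 and 1283 bp in WT, with a centred log2 change of -0.09 (limma adjusted p = 0.667). The highest summit lay 1 bp into the gene in all 6 libraries. The pileup call was kept without each library in turn, and was lost over local background (-0.32, limma adjusted p = 0.0633).

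**Figure D2:**
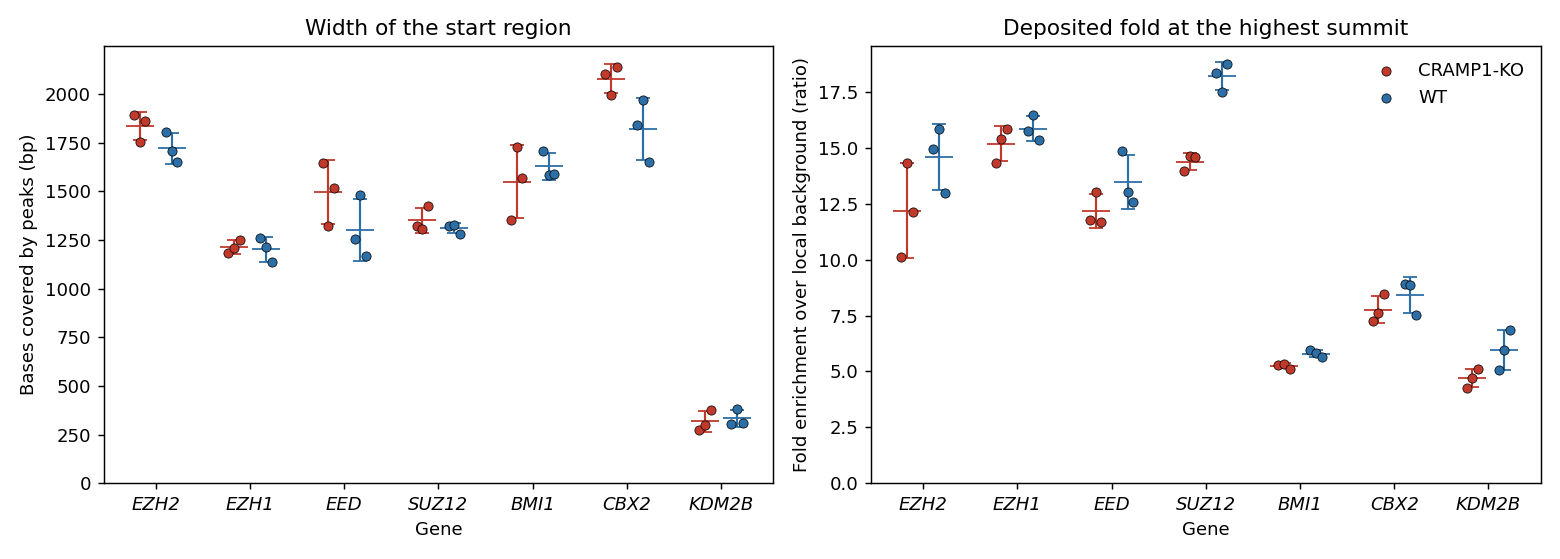
Width of the start region (bases covered by peaks, left) and the deposited fold enrichment over local background at its highest summit (right) for the 7 genes, with CRAMP1-KO left of WT. Points are libraries and bars the mean with SD of 3 libraries. Widths overlap between genotypes at EZH2 and SUZ12, while the folds of SUZ12 and BMI1 do not.

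BMI1, the partner of the RING ligase, lies on chromosome 10 close to COMMD3, with which the RefSeq gene table lists the joint locus COMMD3-BMI1. Its start region, from 22609344 to 22611095, had a scaled pileup of 1.92, 1.87 and 1.85 in CRAMP1-KO, against 2.08, 2.10 and 2.04 in WT. The groups did not overlap, but the log2 change of -0.14 (SE 0.10) did not pass the test (limma adjusted p = 0.303). A second shared region, 4.5 kb into the gene, had 1.85, 1.76 and 1.81 in CRAMP1-KO and 2.09, 1.99 and 2.04 in WT (log2 change -0.17, limma adjusted p = 0.198). The region 4.7 kb before the start overlapped between genotypes, at 1.97 ± 0.172 in CRAMP1-KO and 2.13 ± 0.226 in WT (SD, n = 3 each). Fold at the BMI1 start did not overlap between genotypes, at 5.25 ± 0.114 in CRAMP1-KO and 5.80 ± 0.154 in WT (SD, n = 3 each). The local background there was 25.4 ± 7.40 fragments in CRAMP1-KO and 27.4 ± 7.92 in WT.

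CBX2, which reads the methyl mark, was the one gene whose start region had a positive change with median scaling. The region, on chromosome 17 from 77751160 to 77753349, had a scaled pileup of 2.26, 2.16 and 2.24 in CRAMP1-KO, against 2.24, 2.11 and 2.04 in WT. The genotypes overlapped, with a log2 change of 0.06 (SE 0.10, limma adjusted p = 0.684), which turned negative without scaling (-0.04) and over local background (-0.11). Width was 2103, 1995 and 2138 bp in CRAMP1-KO and 1840, 1969 and 1651 bp in WT. Those raw widths did not overlap, but shared regions in general were narrowest in WT replicate 3 (median 506 bp, against 586 to 656 bp elsewhere), and the centred log2 change was 0.06 (limma adjusted p = 0.703). The other shared regions, 8.6 and 15.2 kb from the start, had log2 pileup changes of -0.04 and -0.02. The second of these lies beyond the gene's end, where the neighbouring gene in the RefSeq gene table is CBX8, another methyl reader.

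KDM2B, which binds unmethylated CpG, had the widest spread of changes, over 17 shared regions against 1 to 3 in each other window. A range grows with the number of regions, so this spread is not read as a trait of the gene. Its start region, on chromosome 12 from 122018176 to 122018575, lies 0.69 kb inside the annotated start. It was narrow and weak, with a scaled pileup of 0.656, 0.661 and 0.719 in CRAMP1-KO, against 0.866, 0.931 and 1.26 in WT. All CRAMP1-KO libraries were below all WT libraries, and the log2 change was -0.57 (SE 0.15, limma adjusted p = 0.00312). Without WT replicate 3, the highest, it was -0.42 (limma adjusted p = 0.0657). Fold was 4.70 ± 0.410 in CRAMP1-KO and 5.96 ± 0.895 in WT (SD, n = 3 each). The nearest region on the other side of the start was listed in CRAMP1-KO replicate 3 and in WT replicates 1 and 2 only.

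The strongest KDM2B region lay 113.9 kb into the gene, from 121904246 to 121905985, and stood above 95.7% of all shared regions in scaled pileup. In GRCh38.p14 the internal KDM2B start whose promoter is printed above lies at a like distance from the first start. Scaled pileup was 4.16, 4.39 and 3.75 in CRAMP1-KO, against 4.78, 5.55 and 5.68 in WT. The genotypes did not overlap, and the log2 change was -0.38 (SE 0.11, limma adjusted p = 0.00569), a call kept without each library in turn. Fold was 13.0, 14.3 and 12.5 in CRAMP1-KO and 15.2, 16.1 and 15.2 in WT, also without overlap. Width was 1596 ± 125 bp in CRAMP1-KO and 1543 ± 45.0 bp in WT (SD, n = 3 each), and did not pass its test (limma adjusted p = 0.697).

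In all, 5 of the 17 shared KDM2B regions were called lower and 0 higher, against 15.5% and 9.36% of all shared regions. None of these 5 calls was kept over local background or with depth-index scaling. The region 94.0 kb in had a scaled pileup of 2.08, 2.27 and 2.31 in CRAMP1-KO and 2.62, 2.92 and 3.02 in WT (log2 change -0.36, limma adjusted p = 0.00491). The one at 67.2 kb had 1.26, 1.56 and 1.36 in CRAMP1-KO and 1.70, 1.91 and 1.81 in WT (-0.38, limma adjusted p = 0.00732), a call lost without CRAMP1-KO replicate 1 (-0.30, limma adjusted p = 0.0617) or WT replicate 2 (-0.34, limma adjusted p = 0.0515). The one at 60.3 kb had 0.410, 0.339 and 0.375 in CRAMP1-KO and 0.598, 0.506 and 0.642 in WT (-0.63, limma adjusted p = 0.00901). The genotypes overlapped at none of these 3 regions. Other regions of the same gene went the opposite way without passing the test. The region 102.1 kb in had 0.770, 0.516 and 0.729 in CRAMP1-KO and 0.515, 0.494 and 0.566 in WT (log2 change 0.34, limma adjusted p = 0.150), overlapping between genotypes. Those at 137.8 and 80.8 kb had log2 changes of 0.19 and 0.19, and the one 1.6 kb before the start a change of -0.01.

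**Figure D3:**
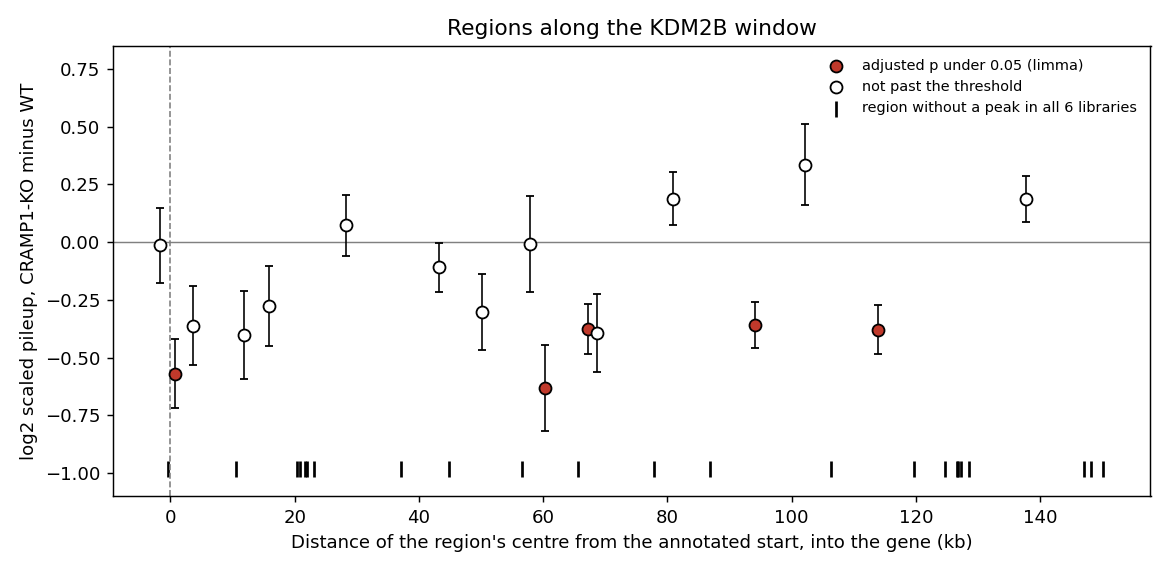
Log2 change in scaled pileup (CRAMP1-KO minus WT) of the 17 shared regions of the KDM2B window, against the distance of the region's centre from the annotated start in kb. Error bars are the SE from limma, filled colours tell regions called lower from those not called, and ticks at the bottom mark regions without a peak in all 6 libraries; the 5 called regions lie at 0.7, 60.3, 67.2, 94.0 and 113.9 kb, with uncalled positive changes between them.

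Width gave no call. Of the 29 shared regions, 0 were called wider and 0 narrower in CRAMP1-KO by limma, where 0.0281% and 0.0141% of all shared regions were. At an unadjusted p under 0.05, 1 was wider and 3 were narrower, as were 6.05% and 5.85% of all shared regions. Limma without its mean-variance trend also called 0. The largest width change was at the KDM2B region 68.7 kb in, whose peaks spanned 701, 454 and 674 bp in CRAMP1-KO and 304, 355 and 224 bp in WT. All CRAMP1-KO libraries were wider there, but the log2 change of 0.92 (SE 0.20) did not pass (limma adjusted p = 0.155), and the scaled pileup of the same region was 0.539 ± 0.0867 in CRAMP1-KO and 0.703 ± 0.0523 in WT (SD, n = 3 each). It was the only one of the 29 regions with all centred CRAMP1-KO widths above WT, against 7.54% of all shared regions. The KDM2B regions 60.3 and 11.8 kb in had all below, against 11.3% of all shared regions. At 60.3 kb the peaks spanned 597, 640 and 1100 bp in CRAMP1-KO and 1232, 1136 and 887 bp in WT (log2 change -0.65, limma adjusted p = 0.268).

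Sums over each gene's window mostly overlapped between genotypes. The bases covered by peaks, as a share of the library's covered bases, overlapped between genotypes at all 7 genes. For KDM2B the share was 189.7 ± 8.38 bases per 1000000 in CRAMP1-KO and 199.5 ± 17 in WT (SD, n = 3 each; two-sided exact permutation p = 0.6), and its difference of -9.80 became -0.301 without WT replicate 2. For CBX2 the share was 37.4 ± 4.45 in CRAMP1-KO and 29.9 ± 2.92 in WT (SD, n = 3 each; two-sided exact permutation p = 0.2), higher in CRAMP1-KO by 7.49. With a margin of 10 kb in place of 5 kb the EZH1 window did separate the genotypes, with differences of 3.22 bases per 1000000 in covered share and 0.0999 peaks per 10000 in peak share (two-sided exact permutation p = 0.1 for both). Of 50-kb tiles with peaks in every library, 12.6% had all CRAMP1-KO libraries above WT and 7.79% all below. The share of all peaks separated the genotypes at CBX2 alone, at 0.224, 0.215 and 0.253 peaks per 10000 in CRAMP1-KO and 0.201, 0.198 and 0.151 in WT (two-sided exact permutation p = 0.1, the smallest that 3 against 3 libraries allow). Among the tiles 5.14% had all CRAMP1-KO libraries above WT in this share and 7.92% all below. The CBX2 share rests on 2 to 4 peaks per library, and the WT replicate 3 peak of the region 15.2 kb from the start lay just beyond the window. With the margin of 10 kb the CBX2 difference turned negative (-0.0143 peaks per 10000, exact permutation p = 0.8).

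Where the highest summit lay within a start region varied by gene. At SUZ12 and EZH1 it moved by 0 and 6 bp across the 6 libraries. At EZH2 it lay 73 to 81 bp before the start in 5 libraries and 155 bp before it in CRAMP1-KO replicate 3. At EED it lay 213, 183 and 176 bp inside the gene in CRAMP1-KO and 449, 183 and 403 bp inside in WT, overlapping at 183 bp. At BMI1 and CBX2 the summit moved by 417 and 409 bp with no order by genotype.

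Other Polycomb subunits and partners were listed by known membership, 27 in all, of which 17 had a checked position and a shared region at the start. With median scaling, 5 of these 17 start regions were called lower in CRAMP1-KO by pileup and 0 higher. Their calls under the other scalings and over local background were not read out. Depth-index scaling shifts their changes upward by the same amount as those of all other regions. Of all shared regions 15.5% were called lower and 9.36% higher, and of the widest 20% these shares were 23.3% and 3.23%. In 16 of the 17 the change was negative, with a median of -0.24 and a range of -0.40 to 0.04. Of these 17 regions, 15 were in the widest 20%, and a negative change was found in 58.7% of all shared regions and in 78.7% of the widest 20%. Limma without its mean-variance trend called 2 of the 17 lower and 0 higher, against 9045 and 6788 of all 92505 shared regions. PCGF1, the partner of KDM2B in a variant of complex 1, had a scaled pileup of 3.77, 4.39 and 4.25 in CRAMP1-KO and 5.06, 5.84 and 5.42 in WT (log2 change -0.40, limma adjusted p = 0.00381). CBX7, a methyl reader, had 3.16, 3.34 and 3.38 in CRAMP1-KO and 3.88, 3.94 and 4.4 in WT (-0.30, limma adjusted p = 0.0186). YAF2, a subunit of variant complex 1, had 3.49, 3.21 and 3.47 in CRAMP1-KO and 3.91, 4.07 and 4.32 in WT (-0.27, limma adjusted p = 0.0353). None of these overlapped between genotypes. RBBP4, a histone chaperone of complex 2, averaged 3.76 ± 0.294 in CRAMP1-KO and 4.51 ± 0.249 in WT (SD, n = 3 each; log2 change -0.26, limma adjusted p = 0.0496). Its close relative RBBP7 averaged 0.913 ± 0.0569 in CRAMP1-KO and 1.2 ± 0.0969 in WT (SD, n = 3 each; log2 change -0.39, limma adjusted p = 0.0198). By width 0 of the 17 were called. At an unadjusted p under 0.05, 1 was wider and 0 were narrower, as were 6.05% and 5.85% of all shared regions. The start regions closest in scaled pileup to the mean of the 7 genes over the 6 libraries were those of CBX6 (0.150), RNF2 (0.158) and PCGF3 (0.190). The measure was the root mean square difference in log2 scaled pileup. It keeps each region's own height, so it ranks closeness in height and not in pattern alone.

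**Figure D4:**
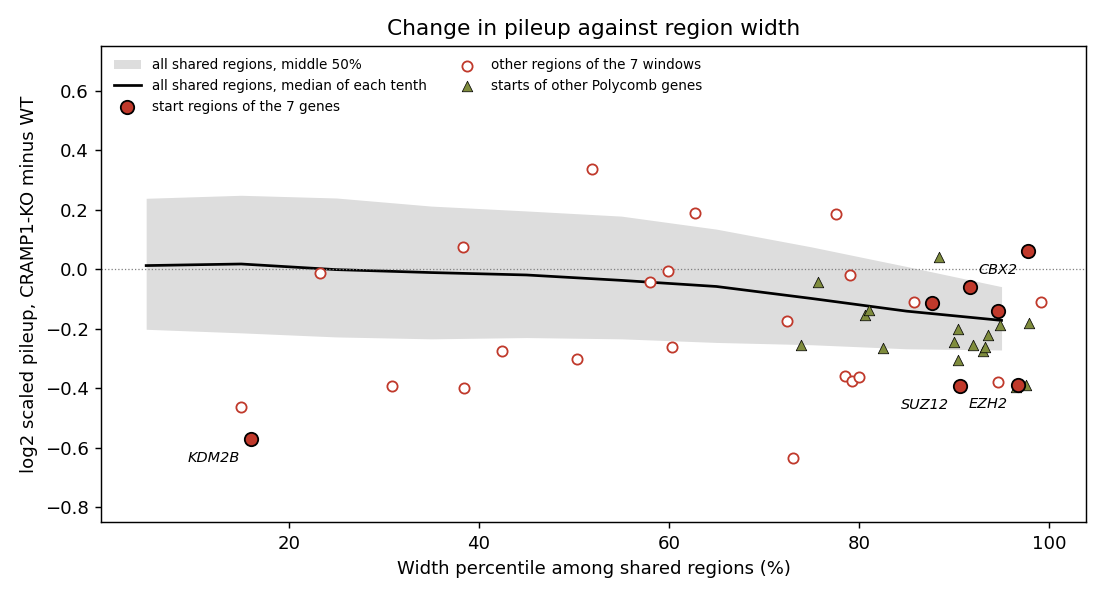
Log2 change in scaled pileup (CRAMP1-KO minus WT) against the width percentile among all 92505 shared regions. The black line and grey band are the median and the middle 50% of each class of 10% of the shared regions by width, filled circles the start regions of the 7 genes, open circles the other shared regions of their windows and triangles the starts of 17 other Polycomb genes; the line stands at 0.01 in the narrowest and at -0.17 in the widest class.

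The change in pileup went with region width across the genome. With median scaling, its median was 0.01 on the log2 scale in the narrowest 10% of all shared regions and -0.17 in the widest 10%. In the narrowest class 9.13% were called lower and 10.4% higher, and in the widest 24.5% were called lower and 1.89% higher. Depth-index scaling shifts all classes by the same amount, so the gap between them stays while their signs may not. Of the 7 start regions, 5 were in the widest 10%. Their log2 changes were -0.39 at EZH2, -0.39 at SUZ12, -0.14 at BMI1, -0.06 at EED and 0.06 at CBX2. The KDM2B start and the EED region at 30.0 kb, at percentiles of 16 and 14.9, were narrow regions with negative changes. The part of region width in these results was not tested.

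With median scaling, the chromosomal surroundings of several genes had a like change. Over all shared regions within 1 Mb of the gene, the median log2 change was -0.23 at EZH2 (55 regions), -0.18 at SUZ12 (98 regions) and -0.16 at KDM2B (143 regions). It was -0.10 at EZH1 (182 regions), -0.03 at BMI1 (68 regions), -0.00 at EED (80 regions) and 0.03 at CBX2 (197 regions). With median scaling, the 3 genes whose start regions were called lower were thus those with the lowest medians around them. The one with a positive change had the only positive median. These signs depend on the scaling: with the depth index the starts of EZH1 (0.0451), EED (0.0986) and BMI1 (0.0180) also turned positive, and no start was called. The medians around the genes were not computed with that scaling. It adds the same amount to every region's change, so their order would stay while their signs may not. The median of all shared regions moved from -0.07 to 0.09. The medians around the genes include the genes' own regions, and the part of the surroundings in the changes at the starts was not tested.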

How the data were processed

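Chromatin accessibility was profiled by ATAC-seq from 50000 cells per library, tagmented for 30 minutes and amplified for 7 cycles, per the labels' protocols. The submitters' processing notes name hg19, MACS3, BWA 0.7.17-r1188, cutadapt 3.4 and bcl2fastq 2.20.0. They state no MACS3 settings, and the handling of duplicates and of the transposase shift was not given in the sources used here. Peaks were called separately and the authors deposited 1 peak list per library, with a score (10 times −log10 q, truncated), a fold (ratio of summit pileup to local background), −log10 p, −log10 q and the summit offset, which is another unit (bp). Read totals are unknown, so no counting interval is given.

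From the deposited fold and −log10 p a pileup and a background were solved per summit; 100% of pileups were whole within 0.01. Peaks of chromosomes 1 to 22 and X were merged at an overlap of at least 1 bp. Log2 highest-summit pileup and log2 covered width of the 92505 shared regions, each minus its library median, were tested with limma 3.58.1 (mean-variance trend, two-sided, Benjamini-Hochberg over all shared regions, threshold 0.05) in R 4.3.3, after a check on simulated data. For shares of gene windows an exact permutation test, two-sided, enumerated the 20 assignments. Python 3.11.15, numpy 2.4.6, pandas 2.3.3, scipy 1.17.1 and matplotlib 3.10.9 did the rest. A start region is the shared region nearest to the annotated start within 2.5 kb. All 7 genes are named, with each other called region of their windows; further uncalled regions were named after their values were seen. Of the other Polycomb genes, those called and the 3 closest to the mean of the 7 start regions in scaled pileup are named. Their hg19 windows were written by hand and kept where chromosome, strand and length (within 5%) matched the RefSeq gene table. Members and lists were chosen with earlier results of these data known. Alternatives were other scalings, filters, overlaps, models, a replicate block and leaving out each library.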

Additional observations from a re-analysis of the deposited data

How the results depend on the processing

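Of the 29 shared regions at the Polycomb genes, 8 were called lower by pileup. The count was 4 without the mean-variance trend, 1 over local background, 0 with no scaling, 0 with depth-index scaling, 7 or 8 under the other filters, overlaps and summit rules, and 5 to 9 without each library in turn. The count called higher was 0 in every setting but 1, and 0 to 1 without each library. Over all shared regions the 14370 called lower became 9045, 2082, 0 and 458 in the first 4 of those settings and 9439 to 14749 without each library. The 8656 called higher became 3329 over local background, 0 with no scaling and 2846 with the depth index.

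The EZH2 start call was lost without the trend (-0.39, limma adjusted p = 0.0735), with no scaling (-0.49), over local background (-0.23), with the depth index (-0.23) and without CRAMP1-KO replicate 1 or WT replicate 2 (range over libraries left out -0.51 to -0.26). SUZ12 was lost with no scaling (-0.49), over local background (-0.32) and with the depth index (-0.23). The KDM2B start was lost with no scaling (-0.67), over local background (-0.31), with the depth index (-0.41) and without WT replicate 3 (range -0.67 to -0.42). CBX2 turned to -0.0391 with no scaling and to -0.11 over local background. With the depth index EZH1 turned to 0.0451, EED to 0.0986 and BMI1 to 0.0180, and EED ranged from -0.183 to 0.00689 without each library. The KDM2B region at 60.3 kb had no value at −log10 q of at least 5.

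By width, 26 of all shared regions were called higher and 13 lower. These became 64 higher with −log10 q of at least 5, 7 lower with lists of equal length, 1 and 0 with no centring, 76 and 24 without the trend, and 0 and 0 without each library. With no centring the width change turned to 0.0941 at EZH2, 0.0134 at EZH1, 0.0417 at SUZ12, and 0.0463 and 0.0213 at the KDM2B regions at 113.9 and 67.2 kb. Without each library it ranged from -0.0734 to 0.00933 at the EZH2 start, -0.000631 to 0.136 at the EED start and -0.0437 to 0.412 at the EED region at 30.0 kb. No width change of a member passed the test in any setting.

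Under the alternatives 28 differences in window shares changed sign and 112 did not. Covered shares (bases per 1000000) turned to 0.0101 at BMI1 with a margin of 2 kb, to 0.582 at BMI1 and -1.26 at EZH2 with 10 kb, to -1.01 at EZH2, -0.289 at EZH1 and -0.788 at SUZ12 with lists of equal length, and to -0.366 at EZH2, -1.08 at EED and -0.367 at SUZ12 with −log10 q of at least 5. Without each library they ranged from -2.73 to 1.76 at BMI1, -0.251 to 4.4 at EED, -0.465 to 1.33 at EZH2 and -1.17 to 1.43 at SUZ12. Peak shares (per 10000) turned to -0.0143 at CBX2 with 10 kb and to -0.0459 at EED and -0.0377 at KDM2B with −log10 q of at least 5. Without each library they ranged from -0.00569 to 0.0489 at BMI1, -0.00285 to 0.0446 at EED, -0.0293 to 0.00309 at EZH2, -0.0761 to 0.131 at KDM2B and -0.000697 to 0.0118 at SUZ12. WT-only regions at the Polycomb genes numbered 0 to 3 without each library, and over all regions 3525 to 8696 (2823 with all libraries). Leaving out a library relaxes that pattern, so these counts could only stay or rise.

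Deviations of same-numbered libraries correlated at 0.0556, 0.0622 and -0.0903 for pileup, and those of libraries with different numbers at -0.155 to 0.0978. These values cannot tell whether the replicate numbers pair the libraries. With the replicate block 8 member regions were called lower and 0 higher by pileup, and 0 of all shared regions by width. The cause of these shifts was not tested.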
